A study of Mus musculus with 32 samples.

Results

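The 9 genes described here encode the channels, pump subunit and cotransporter that move salt and water across the lung epithelium: Scnn1a, Scnn1b, Scnn1g, Atp1b1, Cftr, Slc12a2, Aqp1, Aqp3 and Aqp4. They were taken as the probes carrying these gene names on a mouse one-colour expression array, which gave 11 of 55681 mouse probes, since Cftr and Aqp4 had 2 probes each. Whole-lung RNA of 32 C57Bl/6J wild-type pups was measured, 4 pups in each of 8 groups, at postnatal day (P)5 or P14. All pups received a locked nucleic acid antimiR by injection, either with a scrambled sequence (SCR) or directed against miR-34a (A34a), and were kept in 21% O2 (normoxia) or 85% O2 (hyperoxia, a model of bronchopulmonary dysplasia). The comparisons ask how hyperoxia changed these genes at each age, and whether the antimiR altered those levels. No group went without an antimiR, and lungs were flushed with PBS before RNA was taken. The labels give pentobarbital as the anaesthetic for the younger and isoflurane for the older pups, so age and anaesthetic cannot be told apart.

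The air spaces of the newborn lung are cleared of liquid by active sodium transport. Sodium enters epithelial cells through the apical epithelial sodium channel ENaC, built from α, β and γ subunits, and leaves through the basolateral sodium pump, and water follows partly through aquaporins. Before birth the flow runs the other way, driven by chloride that the cotransporter NKCC1 loads into the cells and that CFTR and other channels release.

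Levels are given as log2 intensity relative to the 75th percentile of the same array, so a level below 0 is dimmer than that percentile. Levels are compared between samples for 1 probe and never between probes. A difference is a log2 fold change with its standard error (SE) from limma, and was called where the Benjamini-Hochberg adjusted p over all tested probes was under 0.05. Each array carried between 33606 and 40774 probes well above background. At P14 they numbered 39007 to 40774 in normoxic and 34603 to 36473 in hyperoxic lungs. At P5 they numbered 35935 to 38716 in normoxic, 36079 to 36778 in hyperoxic SCR and 33606 to 34590 in hyperoxic A34a lungs. The part of these group differences in the counts of arrays above background was not tested. All 10 type II pneumocyte markers and all 10 type I pneumocyte markers were above background on every array. Each of the 4 slides held the 8 arrays of 1 age and 1 oxygen level, so oxygen and slide cannot be told apart, nor age and slide. The SCR and A34a arrays lay in different rows of each slide, so antimiR and row cannot be told apart. The labels list a separate sample for each pup, and the p-values measure the spread between these samples.

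Scnn1g and Scnn1b, which moved in opposite directions in hyperoxia, are neighbours on chromosome 7. In GRCm38.p6 the RefSeq gene Scnn1g lies at chr7:121734420-121768482 and Scnn1b at chr7:121865038-121918728, on the same strand and 96555 bases apart. Their probes lie at chr7:128911932-128911991 and chr7:129061584-129061643 in mm9, the build of the array files. The sequences before the start of each gene are printed to show the regions from which the neighbours are read, with matches to the GC box GGGCGG or its reverse complement in capitals. They are the RefSeq plus strand of GRCm38.p6, chr7:121734229-121734419 for Scnn1g and chr7:121864788-121865037 for Scnn1b.
Scnn1g: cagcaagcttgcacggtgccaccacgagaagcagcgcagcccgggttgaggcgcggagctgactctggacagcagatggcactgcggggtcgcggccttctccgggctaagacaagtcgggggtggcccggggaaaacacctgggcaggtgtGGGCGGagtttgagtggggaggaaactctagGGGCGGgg
Scnn1b: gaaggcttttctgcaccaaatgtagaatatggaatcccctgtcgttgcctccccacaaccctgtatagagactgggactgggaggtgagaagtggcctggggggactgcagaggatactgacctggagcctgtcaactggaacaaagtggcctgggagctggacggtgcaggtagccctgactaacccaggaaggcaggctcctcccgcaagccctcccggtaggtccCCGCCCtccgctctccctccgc
The Scnn1g sequence holds 2 GC boxes and the Scnn1b sequence holds 1, a motif found on either strand in 32.7% of the 32851 promoters of the same RefSeq table. The AP-1 motif TGANTCA, the antioxidant response motif TGACNNNGC, the glucocorticoid receptor motif AGAACA and the TATA box TATAAA were searched on both strands of the first 250 bases of each gene's entry in that table and gave 0 matches in either gene. For Scnn1g that window runs past the annotated gene start, and the sequence printed above stops before it. These motifs occur in 6.75%, 10.2%, 16.1% and 12.4% of the promoters. Upstream sequences were found for 6 of the 9 genes, and Scnn1a, Aqp4 and Slc12a2 had none in the table. The antimiR was directed against the mature microRNA below, RefSeq GRCm38.p6 chr4:150068473-150068494, plus strand, with its seed (bases 2 to 8) in capitals.
mmu-miR-34a-5p: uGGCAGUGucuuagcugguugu

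Hyperoxia raised the α and β subunit transcripts of ENaC and lowered the γ subunit transcript, at both ages and with either antimiR. In SCR lungs, 4 of the 9 genes were called higher in 85% O2 at P5 (Scnn1a, Scnn1b, Atp1b1 and Slc12a2) and 1 was called lower (Scnn1g), where 17.4% of all tested probes were called higher and 26.5% lower. With A34a at P5, Scnn1a, Scnn1b, Atp1b1, Slc12a2 and Aqp3 made 5 higher calls and Scnn1g and Aqp1 made 2 lower calls, against 17.1% and 29.5% of all tested probes. In SCR lungs at P14, Aqp3 was again among 5 higher calls and Aqp1 among 2 lower calls, against 28.2% and 32.7%. With A34a at P14 Cftr joined the lower calls, which made 5 higher and 3 lower against 27.6% and 37.9%. The SCR and A34a comparisons use different pups. The median log2 fold change of the 9 genes was 0.38 and 0.43 at P5 and 0.62 and 0.48 at P14 for SCR and A34a, beside medians of all tested probes of -0.07 and -0.09 at P5 and -0.07 and -0.12 at P14. In whole lung, fewer cells of a type and less RNA per cell cannot be told apart.

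**Figure D1:**
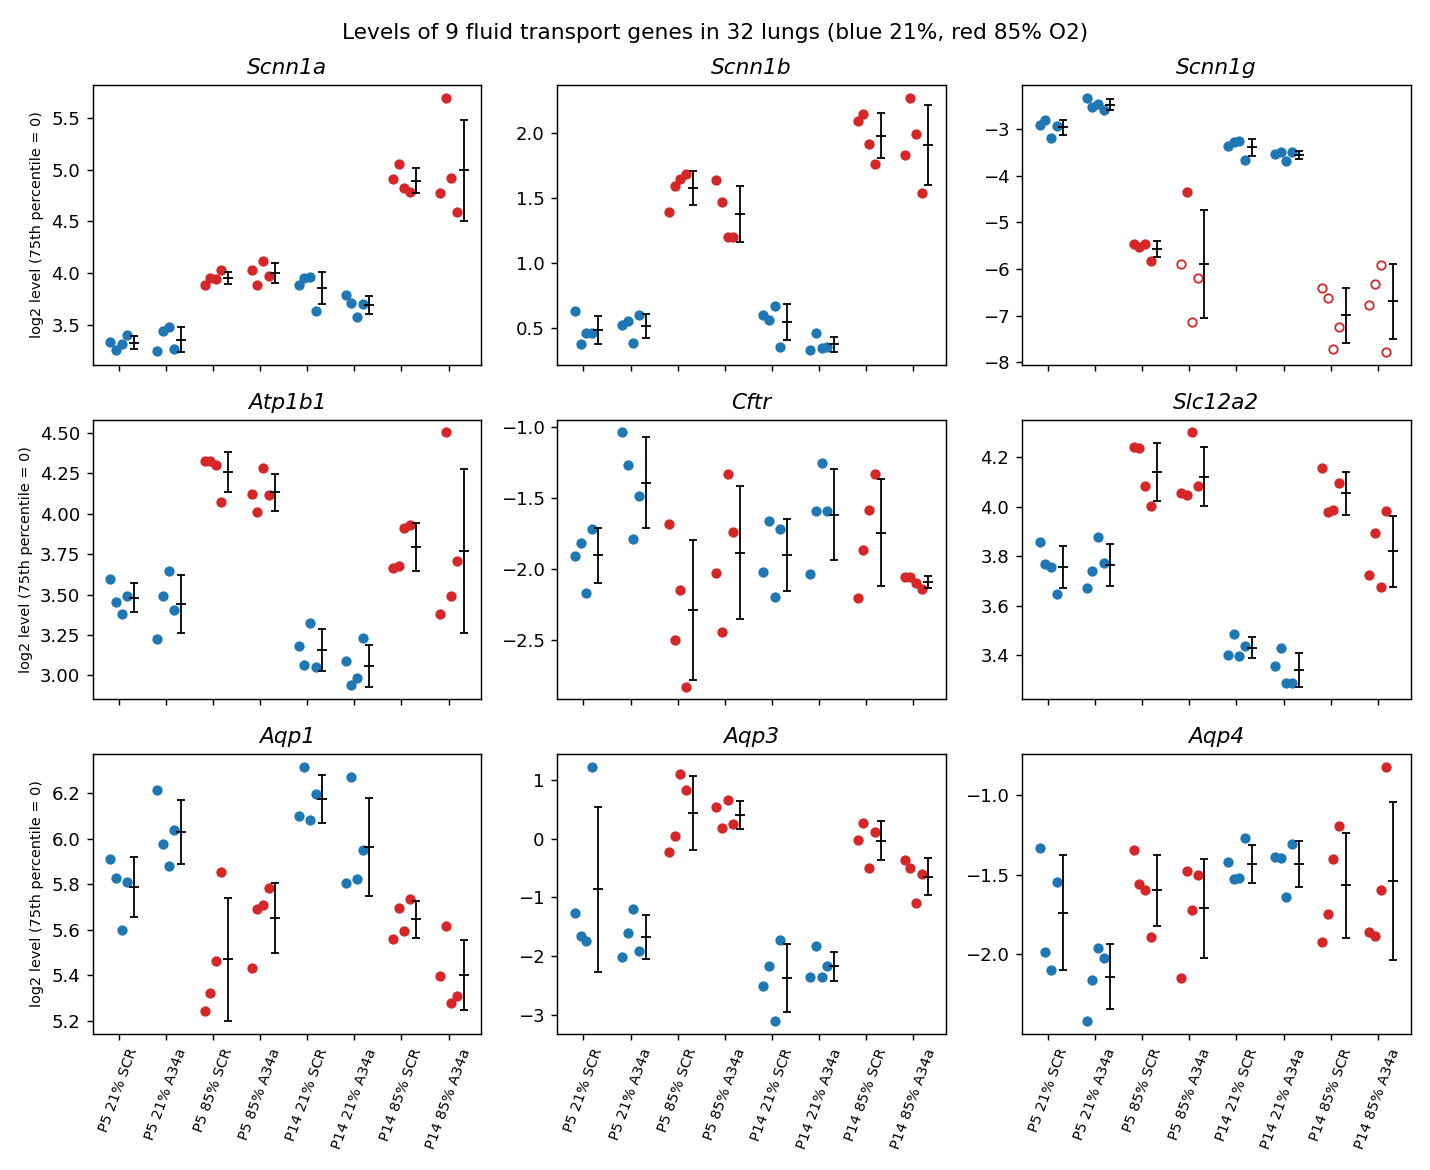
Log2 level of each gene on its brightest probe in every lung (y axis, 75th percentile of the array at 0) by age, oxygen and antimiR (x axis). Points are single pups, open points are not well above background, and bars show mean and SD of 4 pups. The 85% O2 lungs lie above all 21% O2 lungs of the same age and antimiR for Scnn1a, Scnn1b and Slc12a2, and below them for Scnn1g.

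Scnn1g, the γ subunit of ENaC, had the largest fitted decrease of the 9 genes in all 4 oxygen comparisons. In SCR lungs at P5 its levels were -2.93, -2.82, -3.19 and -2.94 in 21% O2 and -5.47, -5.52, -5.46 and -5.83 in 85% O2. In A34a lungs at P5 they were -2.33, -2.53, -2.46 and -2.60 in 21% O2 and -5.90, -4.36, -7.14 and -6.19 in 85% O2. The groups did not overlap with either antimiR. The log2 fold change was -2.60 ± 0.39 in SCR lungs (SE, n = 4 per group, limma adjusted p = 0.00011), a 6.07-fold lower level. It was -3.42 ± 0.39 in A34a lungs (limma adjusted p = 8.64e-06), where 1 of the 4 hyperoxic arrays, replicate 2, measured the probe above background. The A34a value is therefore a fitted value, not a measured fold, and ran from -3.93 to -3.00 with 1 lung left out.

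At P14 no hyperoxic lung showed Scnn1g well above background. SCR levels were -3.36, -3.29, -3.27 and -3.68 in 21% O2 and -6.42, -6.61, -7.72 and -7.24 in 85% O2. A34a levels were -3.55, -3.50, -3.68 and -3.50 in 21% O2 and -6.77, -6.32, -5.90 and -7.78 in 85% O2. All 8 normoxic lungs therefore lay above all 8 hyperoxic lungs. Each hyperoxic value was then raised to the faintest probe well above background on its array. With this bound, the decrease of Scnn1g was at least 6.01-fold in SCR lungs and at least 5.18-fold in A34a lungs. The fit on the measured values gave limma adjusted p of 1.12e-06 and 3.42e-06, and the bounds themselves were not tested. At P14 the probe passed the filter on dim probes through its normoxic groups alone.

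Scnn1b, the β subunit, was higher in 85% O2 in all 4 comparisons. At P5 its SCR levels were 0.63, 0.37, 0.46 and 0.46 in 21% O2 and 1.39, 1.59, 1.65 and 1.68 in 85% O2. At P14 they were 0.59, 0.56, 0.67 and 0.35 in 21% O2 and 2.10, 2.15, 1.92 and 1.77 in 85% O2. Every hyperoxic lung lay above every normoxic lung of its age. Scnn1b rose 2.14-fold at P5 and 2.71-fold at P14, log2 fold changes of 1.10 ± 0.10 and 1.44 ± 0.13 (SE, n = 4 per group, limma adjusted p = 1.79e-06 and 9.68e-07). With A34a it rose by 0.86 ± 0.10 at P5 and 1.54 ± 0.13 at P14 on the log2 scale (limma adjusted p = 1.29e-05 and 4.96e-07), again with no overlap.

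Scnn1a, the α subunit that ENaC needs to conduct, rose as well. At P5 its SCR levels were 3.33, 3.26, 3.32 and 3.40 in 21% O2 and 3.89, 3.96, 3.94 and 4.03 in 85% O2. At P14 they were 3.88, 3.95, 3.96 and 3.63 in 21% O2 and 4.91, 5.06, 4.83 and 4.78 in 85% O2. The oxygen groups did not overlap at either age, and the P14 normoxic range overlapped that of the P5 hyperoxic lungs. Scnn1a rose by 0.62 ± 0.07 at P5 and 1.04 ± 0.18 at P14 on the log2 scale (SE, n = 4 per group, limma adjusted p = 8.59e-06 and 0.000228). With A34a the rise was 0.64 ± 0.07 at P5 and 1.30 ± 0.18 at P14 (limma adjusted p = 5.56e-06 and 2.89e-05). The P14 A34a hyperoxic lungs stood at 4.77, 5.69, 4.92 and 4.59, and without replicate 2, the highest, the log2 fold change was 1.06.

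Atp1b1, the β1 subunit that carries the sodium pump to the basolateral membrane, was higher in 85% O2 in all 4 comparisons. Its SCR levels at P5 were 3.60, 3.45, 3.38 and 3.49 in 21% O2 and 4.32, 4.33, 4.30 and 4.07 in 85% O2. At P14 they were 3.18, 3.06, 3.33 and 3.05 in 21% O2 and 3.66, 3.67, 3.91 and 3.93 in 85% O2. The oxygen groups did not overlap at either age. Atp1b1 rose by 0.78 ± 0.09 at P5 and 0.64 ± 0.19 at P14 on the log2 scale (SE, n = 4 per group, limma adjusted p = 1.79e-05 and 0.00958). With A34a the rise was 0.69 ± 0.09 at P5 and 0.71 ± 0.19 at P14 (limma adjusted p = 4.16e-05 and 0.00458), and the P14 call was lost in the methods' t-test after Benjamini-Hochberg adjustment (adjusted p = 0.0986). The P14 A34a hyperoxic levels were 3.38, 4.50, 3.49 and 3.70, and without replicate 2 the log2 fold change was 0.46 (limma adjusted p = 0.0026).

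Type I pneumocyte transcripts moved with oxygen as well. In SCR lungs 8 of the 10 type I markers were called higher at P5 and 5 at P14, while 1 and 2 were called lower. For the 10 type II markers the higher calls were 1 and 4 and the lower calls 1 and 5. The mean centred level of the type I list ran from -0.57 to -0.33 in SCR normoxic and from -0.03 to 0.11 in SCR hyperoxic lungs at P5, and from 0.08 to 0.16 and 0.28 to 0.38 at P14. With A34a, 6 type I markers were called higher and 1 lower at P5, and 5 and 3 at P14, where the list ran from -0.02 to 0.06 in normoxic and from -0.28 to 0.40 in hyperoxic lungs. Replicate 4 of that hyperoxic group, at -0.28, lay below all normoxic A34a lungs of its age. In SCR lungs other lists were lower in hyperoxia: of the 8 airway secretory markers 5 were called lower at P5 and 6 at P14 (median log2 fold changes of -3.24 and -4.71), and of the 8 heart muscle markers 7 and 5 (-2.09 and -1.67), with 0 higher but for 1 airway marker at P14. With A34a, 0 airway secretory markers were called either way at P5 (median 0.50), and 5 were called lower at P14 (-2.99). Of the heart muscle markers 2 and 4 were called lower with A34a (-1.10 and -1.69). In normoxic lungs at P5 the airway secretory list ran from -0.99 to 2.23 with SCR and from -2.75 to -1.90 with A34a. The part of these cell types in the changes of Scnn1a, Scnn1b, Scnn1g and Atp1b1 was not tested.

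**Figure D2:**
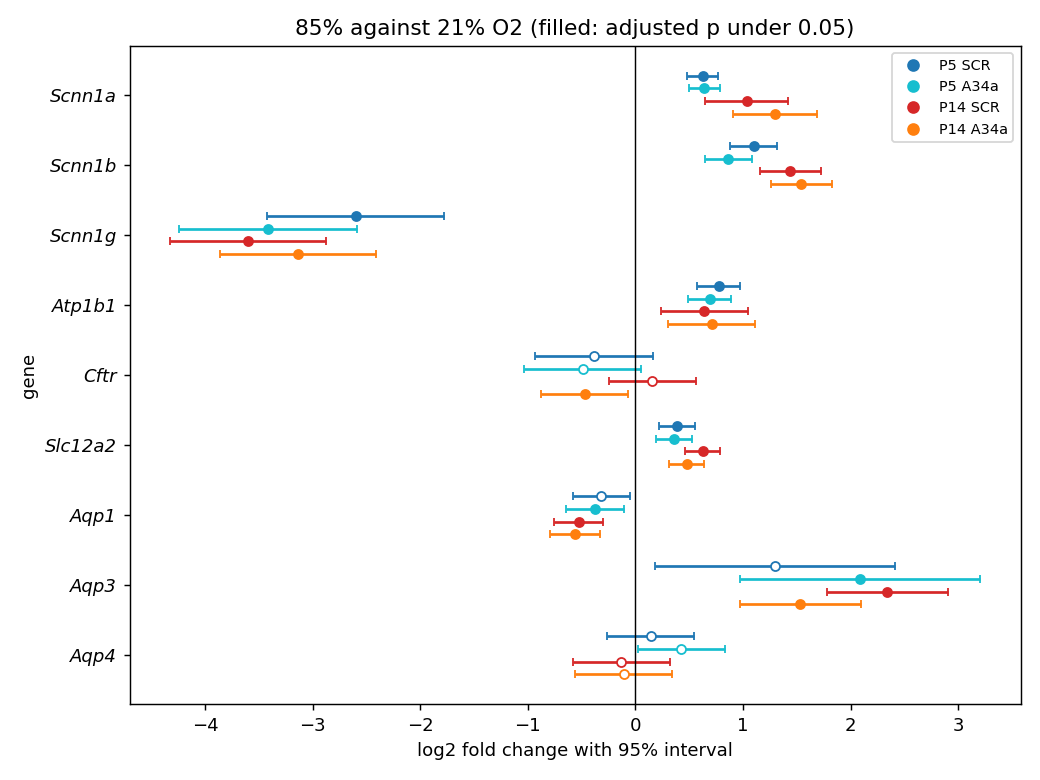
Log2 fold change of 85% against 21% O2 (x axis) for the 9 genes (y axis), with 95% intervals, for SCR and A34a lungs at P5 and P14 (n = 4 pups per group). Filled points had a limma adjusted p under 0.05. Scnn1g lies left of 0 in all 4 comparisons, at -2.60 in SCR lungs at P5, and its other 3 points are fitted values, not measured folds, since 0 or 1 of 4 hyperoxic arrays were above background, while Scnn1a, Scnn1b, Atp1b1 and Slc12a2 lie right of 0 in all 4.

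Slc12a2, which encodes the basolateral cotransporter NKCC1, was raised by hyperoxia in all 4 comparisons. Its SCR levels at P5 were 3.86, 3.77, 3.75 and 3.65 in 21% O2 and 4.24, 4.23, 4.08 and 4.00 in 85% O2. At P14 they were 3.40, 3.49, 3.39 and 3.44 in 21% O2 and 4.16, 3.98, 3.99 and 4.10 in 85% O2. No hyperoxic lung fell within the normoxic range of its age. Slc12a2 rose by 0.38 ± 0.08 at P5 and 0.62 ± 0.08 at P14 on the log2 scale (SE, n = 4 per group, limma adjusted p = 0.00129 and 1.01e-05). With A34a the rise was 0.36 ± 0.08 and 0.48 ± 0.08 (limma adjusted p = 0.00191 and 8.38e-05).

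Cftr, the apical chloride channel mutated in cystic fibrosis, varied about as much within groups as between oxygen levels in SCR lungs. Its SCR levels at P5 were -1.91, -1.82, -2.17 and -1.72 in 21% O2 and -1.68, -2.50, -2.14 and -2.83 in 85% O2. At P14 they were -2.02, -1.66, -2.20 and -1.72 in 21% O2 and -2.20, -1.87, -1.58 and -1.33 in 85% O2. These SCR groups overlapped at both ages. The log2 fold change was -0.39 at P5 (95% interval -0.93 to 0.16) and 0.16 at P14 (-0.25 to 0.56), with limma adjusted p of 0.235 and 0.49. In A34a lungs it was -0.49 at P5 (-1.04 to 0.05, limma adjusted p = 0.128, or 0.0383 without replicate 3 of the hyperoxic lungs) and -0.47 at P14 (-0.88 to -0.07, limma adjusted p = 0.0398). That last call was lost under quantile normalization, where the log2 fold change was -0.26 (limma adjusted p = 0.197), and in 7 of 8 fits that left out 1 lung, with values from -0.61 to -0.35. The P14 A34a levels on the brightest probe ran from -2.03 to -1.25 in 21% O2 and from -2.14 to -2.05 in 85% O2, with no overlap. The second Cftr probe was above background on 1 of 32 arrays.

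Aqp3, a water and glycerol channel of airway and basal epithelium, rose several-fold in 3 of the 4 comparisons. Its SCR levels at P5 were -1.27, -1.65, -1.75 and 1.23 in 21% O2 and -0.23, 0.04, 1.10 and 0.83 in 85% O2. At P14 they were -2.51, -2.16, -3.11 and -1.73 in 21% O2 and -0.02, 0.27, -0.50 and 0.11 in 85% O2. At P5 the oxygen groups overlapped through replicate 4 of the normoxic SCR lungs, and at P14 they did not overlap. The log2 fold change at P5 was 1.30 ± 0.52 (SE, n = 4 per group, limma adjusted p = 0.0571) and without that lung 1.99 (limma adjusted p = 0.000171). It was also called without replicate 1 of the hyperoxic lungs (limma adjusted p = 0.0412) and with probes above background on every array (0.0492). At P14 Aqp3 rose 5.07-fold, a log2 fold change of 2.34 ± 0.26 with a limma adjusted p of 5.1e-06. With A34a the log2 fold change was 2.09 ± 0.52 at P5 and 1.53 ± 0.26 at P14 (limma adjusted p = 0.00472 and 0.000162), with no overlap at either age.

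The lung that stood apart for Aqp3 also had high levels of many muscle and basal cell markers. Its mean centred level of the 10 skeletal muscle markers was 4.46, where the group median was 0.18, and that of the 8 basal cell markers was 3.48, where the group median was 0.27. Krt5, a keratin of basal cells, stood at 2.88 in that lung and from -5.03 to -4.43 in the other lungs of its group. Not all list members moved, as Trp63 stood at 2.62 beside 2.54 to 2.56, Pvalb at -3.40 beside -3.55 to -3.24, and Dsg3 was not well above background in any of the 4 lungs. In the hyperoxic SCR lungs at P5 the basal cell list ran from -0.33 to -0.22. Of the basal cell markers, 0 were called higher in any of the 4 oxygen comparisons and between 2 and 5 were called lower. The part of basal cells in the Aqp3 values was not tested.

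**Figure D3:**
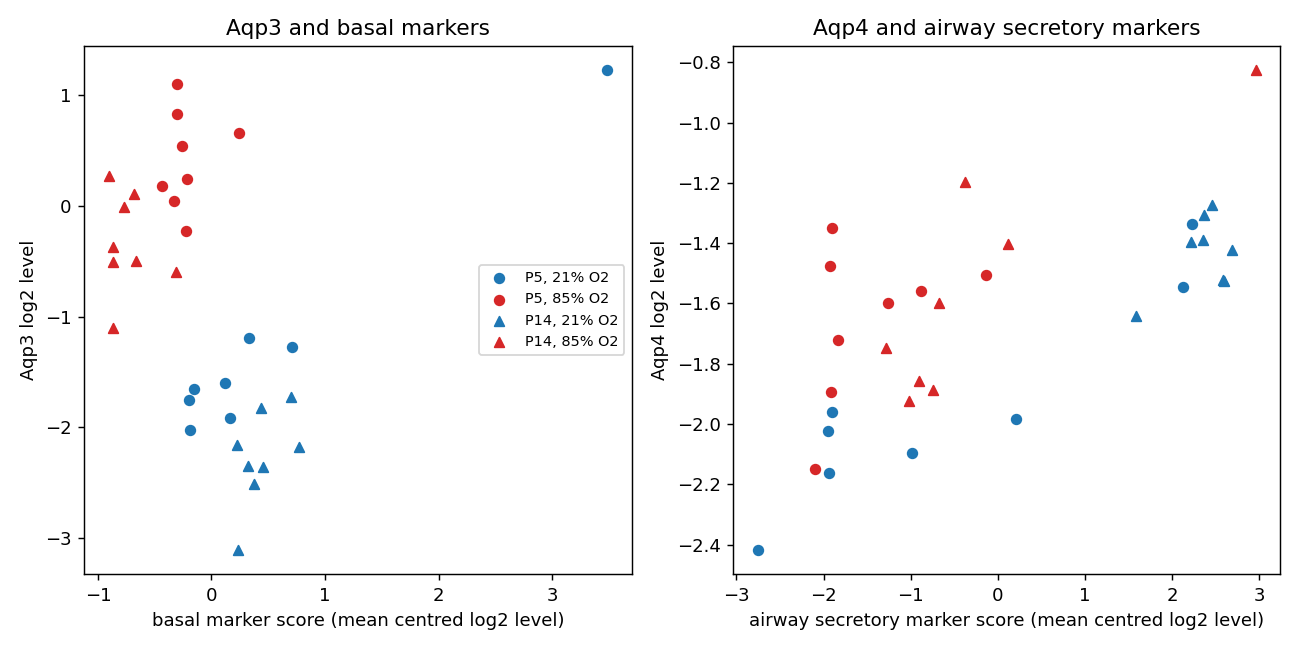
Log2 level (y axis) of Aqp3 against the mean centred level of the basal cell markers (left, x axis) and of Aqp4 against that of the airway secretory cell markers (right, x axis) in 32 lungs. Circles are P5, triangles P14, blue 21% O2 and red 85% O2. A single normoxic P5 lung has a basal cell list of 3.48 and an Aqp3 level of 1.23.

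Aqp1, the water channel of lung endothelium and red blood cells, was lower in hyperoxia at P14. Its SCR levels at P14 were 6.10, 6.31, 6.08 and 6.19 in 21% O2 and 5.56, 5.69, 5.60 and 5.73 in 85% O2. At P5 they were 5.91, 5.83, 5.60 and 5.81 in 21% O2 and 5.24, 5.32, 5.46 and 5.85 in 85% O2. The groups were separate at P14 and overlapped at P5 through replicate 4 of the hyperoxic lungs. Aqp1 differed by -0.53 ± 0.11 on the log2 scale at P14 (SE, n = 4 per group, limma adjusted p = 0.000759) and -0.32 ± 0.13 at P5 (limma adjusted p = 0.0527). It was called at P5 without that lung (limma adjusted p = 0.0049) or without replicate 3 of the normoxic lungs (0.0368), and also under quantile normalization (0.0449), with probes above background on every array (0.0461) and in the authors' table (0.0422). With A34a the difference was -0.56 ± 0.11 at P14 and -0.37 ± 0.13 at P5 (limma adjusted p = 0.00039 and 0.0243). The P5 call with A34a was lost without replicate 1 of the normoxic or of the hyperoxic group (limma adjusted p = 0.0761 and 0.0785). Of the 8 red blood cell markers, 7 were tested, 0 were called higher and 4 were called lower in SCR lungs at P14, and their mean centred level ran from -1.02 to 0.50 in 21% O2 and from -2.17 to -0.84 in 85% O2. Of the 10 endothelial markers, 4 were called higher and 4 lower. The part of either cell type in the Aqp1 change was not tested.

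Aqp4, a basolateral water channel of airway epithelium, was not called in any oxygen comparison on its brighter probe in the fit used here. Its levels ran from -2.10 to -1.34 in normoxic and from -1.89 to -1.35 in hyperoxic SCR lungs at P5. At P14 they ran from -1.53 to -1.27 in normoxic and from -1.92 to -1.20 in hyperoxic SCR lungs. All 4 pairs of oxygen groups overlapped. The log2 fold changes were 0.14 (95% interval -0.26 to 0.54) and 0.43 (0.03 to 0.83) in SCR and A34a lungs at P5, and -0.13 (-0.58 to 0.32) and -0.11 (-0.56 to 0.34) at P14. The P5 A34a difference was called under quantile normalization (0.53, limma adjusted p = 0.0311), in the authors' table (0.55, limma adjusted p = 0.0259) and without replicate 1 of its hyperoxic group (0.57, limma adjusted p = 0.0211). The second probe gave 0.40 and 0.55 for SCR and A34a lungs at P14 (limma adjusted p = 0.095 and 0.0261), so the probes disagreed in direction at that age. The lung with the highest Aqp4 level, -0.83 in replicate 4 of the P14 A34a hyperoxic group, also had the highest airway secretory list, 2.96. That list ran from 2.46 to 2.69 in the P14 normoxic SCR lungs, where Aqp4 ran from -1.53 to -1.27. The part of airway cells in the Aqp4 values was not tested.

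The antimiR comparisons called none of the 9 genes with limma. Between A34a and SCR lungs, 0.136% of all tested probes were called at P5 in 21% O2, 0.0639% at P5 in 85% O2, 0% at P14 in 21% O2 and 2.67% at P14 in 85% O2. At an unadjusted p under 0.05 in limma, 1, 0, 0 and 3 of the 9 genes passed in these comparisons. Of all tested probes, 6322 and 4716 of 35981 passed at P5, and 4032 and 6356 of 38452 at P14 (21% and 85% O2). The methods' t-test with Benjamini-Hochberg adjustment called 0 of the 9 genes in each. For P14 in 21% O2, 4032 of all probes had an unadjusted p under 0.05 in limma and 3133 in the methods' t-test. After adjustment the methods' t-test called 1, 0, 0 and 0 of all probes in these comparisons, where limma called 49, 23, 0 and 1025. The counts moved with other settings too. Without the filter on dim probes 4318 were called at P5 in 85% O2, and at P5 in 21% O2 410 were called with normexp background correction and 408 when the fit held just those groups. At P14 in 85% O2 these 3 settings, in the same order, called 501, 334 and 74.

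Slc12a2 came closest, in 85% O2 at P14. Its A34a levels were 3.72, 3.89, 3.67 and 3.98 beside SCR levels of 4.16, 3.98, 3.99 and 4.10, and the groups overlapped. The log2 fold change of A34a against SCR was -0.24 ± 0.08 (SE, n = 4 per group, limma adjusted p = 0.122), with a 95% interval from -0.40 to -0.07. The genes with the smallest p elsewhere were Aqp4 at P5 in 21% O2 (-0.40, limma adjusted p = 0.284), Scnn1b at P5 in 85% O2 (-0.20, limma adjusted p = 0.414) and Aqp1 at P14 in 21% O2 (-0.21, limma adjusted p = 0.488). Scnn1g was the gene whose groups lay apart, at P5 in 21% O2, with A34a levels of -2.60 to -2.33 above SCR levels of -3.19 to -2.82. Its log2 fold change there was 0.49 (95% interval -0.34 to 1.31, limma adjusted p = 0.515). These 2 groups had SDs of 0.12 and 0.16, and the same fit pooled the SD of 1.15 of the hyperoxic A34a lungs, where 1 of 4 arrays was above background. The widest interval, that of Aqp3 at P5, reached 1.12 to either side, so changes of about that size were not detectable there.

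**Figure D4:**
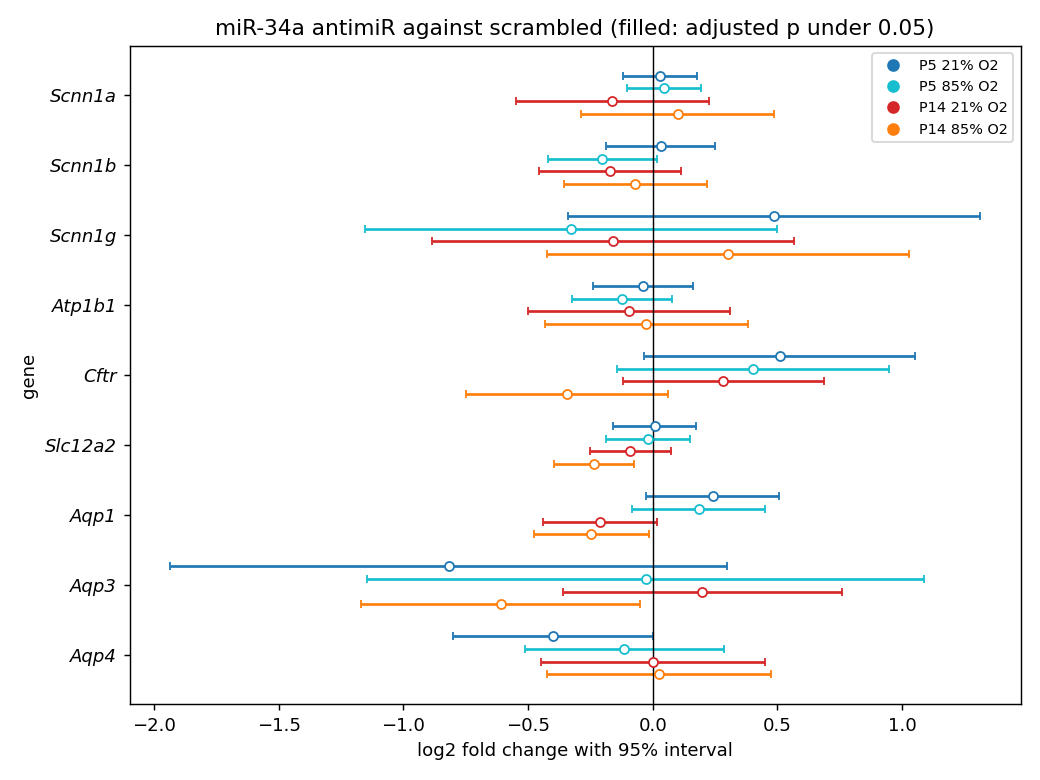
Log2 fold change of A34a against SCR (x axis) for the 9 genes (y axis), with 95% intervals, in 21% and 85% O2 at P5 and P14 (n = 4 pups per group). All points are open, as none had a limma adjusted p under 0.05, and the values lie between -0.82 and 0.51.

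The oxygen effect was not shown to differ between the antimiRs for any of the 9 genes. The interaction of antimiR and oxygen was called for 0.0556% of all tested probes at P5 and 0.0884% at P14, and for 0 of the 9 genes at either age. The smallest p were those of Scnn1b at P5 (-0.23, limma adjusted p = 0.586) and Cftr at P14 (-0.63, limma adjusted p = 0.3). At an unadjusted p under 0.05, 0 and 2 of the 9 genes passed, beside 3893 of 35981 probes at P5 and 5758 of 38452 at P14.

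The oxygen effect on the α and β subunits of ENaC was larger at P14 than at P5 in A34a lungs, and age and slide cannot be told apart. The age by oxygen interaction was 0.66 ± 0.20 for Scnn1a (SE, n = 4 per group, limma adjusted p = 0.0085) and 0.68 ± 0.17 for Scnn1b (limma adjusted p = 0.00226), beside 42.9% of all tested probes called. Without replicate 2 of the P14 hyperoxic A34a lungs it was 0.42 for Scnn1a (limma adjusted p = 0.0067) and 0.56 for Scnn1b (limma adjusted p = 0.0063). In SCR lungs 40.8% of all tested probes were called and 0 of the 9 genes. At an unadjusted p under 0.05, 2 of the 9 genes and 19077 of 39159 probes passed. When the fit held just those groups 2 of the 9 genes were called, and 2 with Y chromosome genes as covariate. Slc12a2 had the smallest p, with 0.24 ± 0.10 (limma adjusted p = 0.0678), and was called without replicate 4 of the P5 normoxic or replicate 1 of the P5 hyperoxic lungs (limma adjusted p = 0.0447 and 0.0453). The values were 0.41 for Scnn1a (limma adjusted p = 0.0945) and 0.34 for Scnn1b (limma adjusted p = 0.109). The difference between SCR and A34a lungs in this interaction was not tested. For Scnn1g the interaction rests on hyperoxic P14 levels that were not well above background on any array, and at P5 on 4 of 4 hyperoxic SCR and 1 of 4 hyperoxic A34a arrays that were.

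Between P5 and P14 in 21% O2, Scnn1a increased and Slc12a2 decreased with either antimiR. In SCR lungs 2 of the 9 genes were called higher at P14 and 2 lower, where 27.7% of all tested probes were called higher and 23.8% lower. In A34a lungs 2 were called higher and 3 lower, where 29.7% and 28.3% of all tested probes were. Scnn1a differed by 0.53 ± 0.14 in SCR and 0.34 ± 0.14 in A34a lungs (limma adjusted p = 0.00255 and 0.0395). Slc12a2 differed by -0.33 ± 0.07 and -0.42 ± 0.07 (limma adjusted p = 0.000659 and 2.63e-05). No normoxic P14 lung of the same antimiR overlapped the P5 range of either gene. Leaving out 1 lung at a time ended the Scnn1a call in A34a lungs in 5 of 8 fits, with values from 0.30 to 0.38, and it was lost with normexp background correction and without the filter on dim probes (limma adjusted p = 0.0526 and 0.0534).

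Of the other genes, Aqp1 and Aqp3 were called in SCR lungs and Aqp4, Scnn1g and Atp1b1 in A34a lungs, while Scnn1b and Cftr were called with neither antimiR. In SCR lungs Aqp1 was higher at P14 by 0.39 ± 0.12 (SE, n = 4 per group, limma adjusted p = 0.00786). Aqp3 was lower, at -1.51 ± 0.43 on the log2 scale (limma adjusted p = 0.00481). The value was -0.82 without replicate 4 of the P5 group (limma adjusted p = 0.0263), and the call was lost when the fit held just those groups (limma adjusted p = 0.0918). In A34a lungs Aqp4 was higher by 0.71 ± 0.20 (limma adjusted p = 0.00456), while Scnn1g was at -1.07 ± 0.38 and Atp1b1 at -0.38 ± 0.15 on the log2 scale (limma adjusted p = 0.0171 and 0.0341). The Atp1b1 call was lost in 4 of 8 fits that left out 1 lung, with values from -0.45 to -0.31. The second Aqp4 probe gave 0.26 (limma adjusted p = 0.26). In SCR lungs Atp1b1 was also called under quantile normalization (limma adjusted p = 0.0245) and in the authors' table (0.0377), and both Atp1b1 and Scnn1g were called when the fit held just those groups (limma adjusted p = 0.0133 and 0.0176) and in the methods' t-test (adjusted p = 0.026 and 0.0389). The remaining values in SCR lungs were 0.31 for Aqp4, -0.43 for Scnn1g, -0.33 for Atp1b1, 0.06 for Scnn1b and 0.00 for Cftr.

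Ordered by group mean, Scnn1g separated the normoxic from the hyperoxic groups completely. Its means fell from -2.48 (P5 A34a) and -2.97 (P5 SCR) to -3.40 and -3.56 (P14 SCR and A34a) in 21% O2, while the 85% O2 means lay between -7.00 and -5.57, where 4 of 4 P5 SCR arrays, 1 of 4 P5 A34a arrays and 0 of 4 arrays of either P14 group were above background, so the hyperoxic groups were not ranked. Neighbours in this order overlapped between the P14 normoxic groups. All 4 hyperoxic groups lay above all 4 normoxic groups by mean for Scnn1a, Scnn1b, Atp1b1, Slc12a2 and Aqp3, and below them for Aqp1. Scnn1b showed no overlap between the lowest hyperoxic group at 1.38 and the highest normoxic group at 0.54. For Scnn1a the P14 hyperoxic groups, at 4.99 and 4.89, lay above the P5 hyperoxic groups, at 4.00 and 3.95, with no overlap. For Cftr, Aqp1, Aqp3 and Aqp4 every pair of neighbours in the order overlapped.

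Among 65 further genes of epithelial salt and water transport, 60 were tested at P5 and 61 at P14. In SCR lungs at P5, 25 were called higher and 13 lower in 85% O2, with a median log2 fold change of 0.16 beside -0.07 for all probes. At P14 in SCR lungs 22 were called higher and 22 lower, with a median of 0.01. Over all tested probes the higher and lower shares were 17.4% and 26.5% at P5 and 28.2% and 32.7% at P14, and these are the background for the counts of each group of genes in SCR lungs. With A34a the higher calls were 19 at P5 and 26 at P14, beside 11 and 19 lower calls, and the medians were 0.14 and 0.17. The higher and lower shares of all tested probes with A34a were 17.1% and 29.5% at P5 and 27.6% and 37.9% at P14.

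Among the regulators and proteases of ENaC, 8 of 12 tested genes were called higher in SCR lungs at P5 and 6 at P14, and 1 and 0 were called lower. With A34a 6 and 7 were called higher and 0 lower at either age. St14, the channel-activating protease matriptase, changed by 0.82 at P5 and 1.39 at P14 (limma adjusted p = 2.46e-06 and 4.8e-09). Spint1, an inhibitor of that protease, changed by 0.72 and 1.15 (limma adjusted p = 1.06e-05 and 2.6e-07). Wnk4, a kinase that regulates salt transporters, changed by 1.08 and 1.06 (limma adjusted p = 1.34e-06 and 4.31e-06).

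Of the 10 sodium pump subunits and FXYD regulators in SCR lungs, 4 were called lower at P5 and 5 at P14, while 2 and 1 were called higher. With A34a the lower calls were 2 and 4 and the higher calls 3 at either age. Fxyd5, which modulates the pump, rose by 0.75 at P5 and 1.73 at P14 (limma adjusted p = 5.01e-06 and 6.34e-08). Atp1b2, another β subunit, had log2 fold changes of -0.93 and -1.43 (limma adjusted p = 2e-05 and 1.17e-06), opposite to Atp1b1. Fxyd6 stood at -0.85 at P5 and -0.12 at P14 (limma adjusted p = 6.5e-05 and 0.695).

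Most of the carbonic anhydrases and other water channels were lower. In SCR lungs 4 of 6 tested genes were called lower at P5 and 5 of 7 at P14, while 1 and 2 were called higher. Car14 and Car12, membrane-bound carbonic anhydrases, were lower by log2 fold changes of -1.53 and -0.74 at P5 (limma adjusted p = 1.84e-07 and 0.0141). The values were -3.08 and -1.73 in the older lungs (limma adjusted p = 0.000143 and 2.79e-06). Aqp5, the apical water channel of type I pneumocytes, rose by 0.85 at P5 and 0.81 at P14 (limma adjusted p = 1.58e-06 and 0.000882).

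Of 15 anion channels and exchangers in SCR lungs, 6 were called higher at P5 and 8 at P14, while 2 and 5 were called lower. Ano1, a calcium-activated chloride channel, rose by 0.98 and 0.74 (limma adjusted p = 1.18e-07 and 5.09e-05). Clca1, a secreted product of mucous cells, was above background on 0 of 4 hyperoxic SCR arrays at P5. Its decrease was at least 3.46-fold, and the fit on the measured values gave a limma adjusted p of 0.00108. Clca1 had a normoxic SCR mean of -4.49 (SD 1.53) at P5, and was also above background on 0 of 4 normoxic A34a arrays there. At P14 its log2 fold change was -8.96 (limma adjusted p = 0.000177), with 3 of 4 hyperoxic arrays above background. In the same SCR comparison at P14, 6 of the 8 airway secretory cell markers were called lower and 1 higher, and the part of airway cells was not tested.

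Among 7 potassium channels in SCR lungs, 3 were called higher at either age, and 1 was called lower at P5 and 2 at P14. Kcnk1 rose by 0.49 and 1.35 (limma adjusted p = 0.000205 and 2.02e-05), while Kcnma1 stood at -0.55 at P5 and -0.07 at P14 on the log2 scale (limma adjusted p = 0.0189 and 0.718). Of 10 receptors and other ion channels, 5 were called higher at P5 and 2 at P14, while 1 and 5 were called lower. Adora2b, an adenosine receptor, rose by 1.15 and 0.48 (limma adjusted p = 4.07e-07 and 0.0204). Hsd11b2, which inactivates glucocorticoids in mineralocorticoid target cells, was lower at P14, at -2.95 on the log2 scale (limma adjusted p = 1.99e-05), with 1 of 4 hyperoxic arrays above background. Cnga1, a cyclic nucleotide-gated channel, had -2.19 at P14 (limma adjusted p = 1.08e-05, 1 of 4 hyperoxic arrays above background). With A34a its decrease was at least 2.96-fold, and the fit on the measured values gave a limma adjusted p of 8.06e-05. Asic1, an acid-sensing sodium channel, had -1.44 at P5 (limma adjusted p = 0.0207, 2 of 4 hyperoxic arrays above background).

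**Figure D5:**
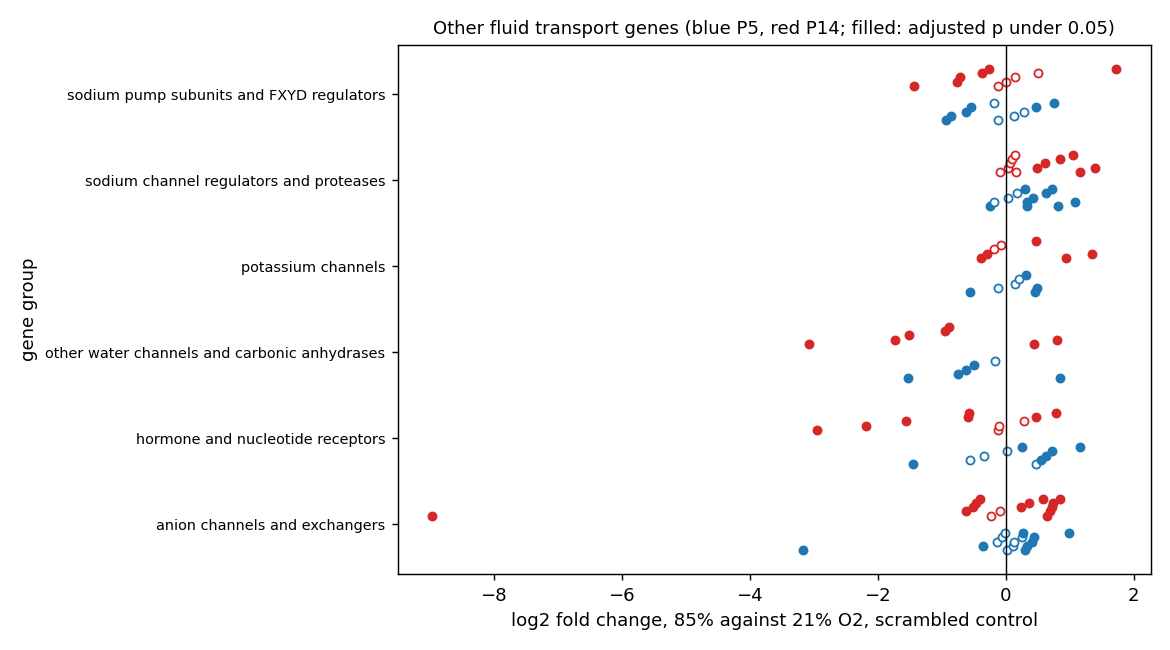
Log2 fold change of 85% against 21% O2 in SCR lungs (x axis) for the further salt and water transport genes by group (y axis). Points are genes, blue at P5 and red at P14, filled where the limma adjusted p was under 0.05. Clca1 lies farthest left, at -8.96 at P14, and its P5 point is a fitted value, not a measured fold, since 0 of 4 hyperoxic arrays were above background.

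In the antimiR comparisons, 0 of these further genes were called with limma at P5 or in 21% O2. For P5 in 21% O2, P5 in 85% O2 and P14 in 21% O2, 12, 8 and 4 had an unadjusted p under 0.05. The tested probes with such a p numbered 6322 and 4716 of 35981 and 4032 of 38452. At P14 in 85% O2, 0 further genes were called higher and 2 lower in A34a lungs. Prss8, a channel-activating protease, had a log2 fold change of -0.27 ± 0.06 and Sgk1, a kinase that raises ENaC at the cell surface, of -0.50 ± 0.12 (SE, n = 4 per group, limma adjusted p = 0.0351 and 0.0426). Sgk1 was higher in 85% O2 in SCR lungs at P14 by 0.49 (limma adjusted p = 0.00314) and stood at -0.09 in A34a lungs (limma adjusted p = 0.55). The difference between these oxygen effects was not called, with an interaction of -0.57 ± 0.17 (limma adjusted p = 0.18). Both calls were lost with normexp background correction, without the filter on dim probes, when the fit held just those groups, in the methods' t-test and with Y chromosome genes as covariate, each of which called 0 of the further genes. With 1 lung left out, between 0 and 3 of the further genes were called.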

How the data were processed

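Per the file headers, the deposited array files hold spot intensities on a linear scale from Agilent Feature Extraction 10.7.3.1, background-subtracted by the authors' software. The series table as deposited by the authors holds log2 values of the same arrays (r between 0.997 and 1.00 per array), used as an alternative. Labels and methods differ on the RNA kit and the anaesthetic. Positions of the array probes are mm9, per the file headers. Here, log2 processed intensity minus the 75th percentile of each array was used; control and outlier spots (0.211%) were left out, repeated spots were averaged, and 0 spots were saturated. A probe was tested where some group had it well above background on each of its 4 arrays, which left 35981 probes at P5, 38452 at P14 and 39159 for both ages. They were fitted with limma 3.58.1 in R 4.3.3. The 16 arrays of an age, or all 32, shared 1 fit, and p-values were adjusted over all tested probes. Genes were read on their brightest probe. Array number and signal over background limit precision. The script was tested on simulated data. Figures used matplotlib 3.10.9 and Python 3.11.15.

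The 9 genes, the gene lists and the comparisons were chosen with earlier results of these data known. Named were the 9 genes in each oxygen and age comparison, called genes or else that with the smallest p in the others, and up to 5 called genes of the further list with the largest change per direction in each oxygen comparison. The 3 genes with the highest Pearson r over all arrays were named for each gene. The 95% intervals come from limma. Alternatives were normexp background correction (offset 50), quantile normalization, other filters on dim probes, only the compared groups, the methods' t-test, a replicate block, the authors' table, Y chromosome genes as covariate, the second probe and leaving out each array.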

Additional observations from a re-analysis of the deposited data

Results flagged for a closer look

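Of 72 groups of 4 pups tested over the 9 genes, 3 held a pup far from the others, where chance gives about 1 in 20. Aqp3 stood at 1.23 in replicate 4 of the P5 normoxic SCR lungs, beside -1.75 to -1.27 in the other pups, and the same lung had a skeletal muscle list of 4.46 and a basal cell list of 3.48. Atp1b1 stood at 4.07 in replicate 4 of the P5 hyperoxic SCR lungs, beside 4.30 to 4.33. Slc12a2 stood at 4.30 in replicate 3 of the P5 hyperoxic A34a lungs, beside 4.04 to 4.08.

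The oxygen effect differed between the ages in A34a lungs for Scnn1a, by 0.66 on the log2 scale, and for Scnn1b, by 0.68, each tested as an interaction in limma (adjusted p = 0.0085 and 0.00226). Age and slide cannot be told apart here.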

How the results depend on the processing

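The oxygen calls of Scnn1a, Scnn1b, Scnn1g and Slc12a2 kept their direction and their call in each alternative that tested them (Scnn1g was not tested where probes had to be above background on every array), and that of Atp1b1 was lost only in the methods' t-test at P14 in A34a lungs. For the count of the 9 genes called, the age by oxygen interaction in SCR lungs went from 0 to 2 with only the compared groups and with the Y chromosome covariate. For the further genes, antimiR calls at P5 in 21% O2 went from 0 to 1 under quantile normalization and in the authors' table. At P14 in 85% O2 they went from 2 to 0 with normexp, without the filter, with only the compared groups, in the methods' t-test and with the Y chromosome covariate. Leaving out 1 array gave 0 to 1 of the 9 genes in the SCR age by oxygen interaction (without replicate 4 of P5 normoxic or replicate 1 of P5 hyperoxic lungs), 3 to 4 in the A34a age comparison (3 without P14 replicate 2, from 5), and 0 to 1, 0 to 1 and 0 to 3 further genes in the antimiR comparisons at P5 in 21% O2, at P14 in 21% O2 and at P14 in 85% O2.

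Replicate numbers were not treated as pairs. At most 2 of 4 same-numbered pairs correlated over 0.1, with r from -0.35 to 0.50 between A34a and SCR lungs at P14 in 21% O2. Between A34a and SCR lungs at P14 in 85% O2, 3 of 4 lungs correlated best with their own number, with r from -0.07 to 0.08. With the replicate block the further genes called at P14 in 85% O2 went from 2 to 1, and no count of the 9 genes moved. The slide block was not run, since each slide held 1 age and 1 oxygen level.

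Values reversed for Aqp4, Cftr and Scnn1b, which were not called there on the brightest probe. In Aqp4 at P14 the oxygen difference was 0.40 in SCR and 0.55 in A34a lungs on the second probe, and in A34a lungs 0.068 under quantile normalization, 0.087 in the authors' table and from -0.35 to 0.0063 with 1 array left out. In the SCR age comparison Cftr was -0.010 with normexp, -0.024 under quantile normalization, -0.011 in the authors' table and from -0.087 to 0.10 with 1 array left out, and Scnn1b was -0.060 with the Y chromosome covariate. Scaling moved the median of all probes at P14 from -0.07 to 0.10 in SCR lungs (normexp) and from -0.12 to 0.08 in A34a lungs (authors' table). Of called probes, the share called higher went from 46.3% to 62.1% (normexp, P14 SCR), from 42.1% to between 53.01% and 55.98% (P14 A34a), from 39.7% to 50.6% and 52.8% (P5 SCR) and from 36.8% to 49.0% (P5 A34a).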

Other observations

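Among 17672 named genes, those with the level pattern most like each gene over the 32 arrays, which share their oxygen groups, were Prkar1b, Ly6c1 and Gadd45g for Scnn1a (highest Pearson r = 0.975), Lilrb4, Sergef and Commd3 for Scnn1b (0.972) and Sp3, Tpr and Hist1h3c for Scnn1g (0.956). For Atp1b1 they were Fnip2, Esrp2 and Calca (0.937), for Slc12a2 Senp2, Hook2 and Slc35g1 (0.940) and for Cftr Pnma2, Trpm1 and Cmya5 (0.894). For Aqp1 they were Atrnl1, Sema3g and Lman1l (0.853), for Aqp3 Celsr1, Pbx4 and Pdzk1ip1 (0.898) and for Aqp4 Wdr72, Hspa4l and Tmem232 (0.841).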
